A study of Mus musculus with 21 samples.

Results

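The data described here are the RNA levels of 8 genes, Kitl, Kit, Gdnf, Gfra1, Ret, Csf1, Lif and Fgf2, which encode ligands and receptors known from the niche of germ line stem cells. They were chosen by name from the deposited gene table, so they are 8 of its 22135 genes, and all 8 were among the 14444 genes that passed the filter on low values. The study measured RNA by sequencing in cultured primary cells of C57BL/6J mice. It has 7 groups of 3 libraries: peritubular myoid cells (PTM), Sertoli cells, Leydig cells and germ cells of the testis, and smooth muscle-like cells of vessel (VSMC), intestine (ISMC) and trachea (TSMC). No group received a treatment or carries an altered gene, and all share one strain and one serum-containing medium. The 4 testicular groups were isolated from testis, whereas the 3 smooth muscle groups were bought from a supplier, so tissue and source cannot be told apart between them. The sources used here give neither the age of the animals nor whether the replicates are separate cultures or animals, so a p-value here speaks only to how far these libraries differ from each other, and part of that may be technical.

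In the testis, spermatogonial stem cells depend on signals from the cells that line and surround the tubule. Glial cell line-derived neurotrophic factor (GDNF) binds the co-receptor GFRA1, and the pair activates the receptor kinase RET on undifferentiated spermatogonia, which sustains self-renewal. KIT ligand (encoded by Kitl, also called stem cell factor) acts on the receptor kinase KIT of differentiating spermatogonia and is made as membrane-bound and shed forms. Colony stimulating factor 1 (Csf1), leukaemia inhibitory factor (Lif) and basic fibroblast growth factor (Fgf2) have been used or described as further supports of these cells. The same molecules serve other tissues: GDNF and RET build the enteric nervous system, KIT marks interstitial cells of Cajal and mast cells, and CSF1 keeps macrophages alive.

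Levels are in FPKM, the authors' deposited unit, which counts sequenced fragments relative to transcript length and library size. Differences are on the log2(FPKM + 1) scale, which understates the change of genes near 0, and come from limma with 1 mean per group. A difference was called when its two-sided p, adjusted by the Benjamini-Hochberg method over the 14444 genes of that comparison, was under 0.05 and its log2 fold change was at least 1 in size. Depth, inferred from the size of 1 fragment in FPKM, was 19950000 to 22500000 fragments per library. The labels were checked against markers. Ldhc and Prm1, genes of meiotic and later germ cells, stood at 3551.19 to 3694.79 and 2598.16 to 2876 FPKM in the germ libraries. Of 10 markers of undifferentiated and differentiating spermatogonia, Dmrtb1 was 618.83 to 801.04 FPKM in germ libraries, Id4 was 9.71 to 10.24 and Uchl1 was 2.08 to 3.53. The other 7, which include Zbtb16, Sall4, Nanos2 and Lin28a, were at most 1.23 there. The list summed to 632.84 to 817.74 FPKM in germ libraries against at most 142.58 in any somatic library. Dmrtb1 made up most of the germ sum and Uchl1 most of the Sertoli sum. Uchl1 was lowest in germ libraries, against 4.23 to 138.91 in somatic libraries. Zbtb16 was highest in Leydig libraries, at 2.02 to 2.84. Amh was at most 0.62 in the Sertoli libraries and Cyp17a1 at most 0.12 in the Leydig libraries, so 1 defining marker of each was near 0. The PTM libraries held a Sertoli marker sum of 319.44, 1216.53 and 495.25, against 360.87 to 665.29 in the Sertoli libraries. The first lay below that range, the second above it and the third within it. In PTM the Leydig marker sum was 2334.7 to 4959.61, against 1096.13 to 7205.59 in the Leydig libraries. Smooth muscle markers summed to 8094.04 to 11270.76 in the Sertoli libraries, above the 2985.77 to 3446.01 of PTM. In these bulk samples fewer cells of a type and less RNA per cell cannot be told apart.

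The stretch before the transcription start is shown for 4 of the ligands, Kitl, Gdnf, Csf1 and Lif, because their levels split the groups in different ways and their starts carry different motifs. Each is the 250 bases before a start in the RefSeq promoter table of build GRCm38.p6, read 5′ to 3′ on the gene's strand, with matches to 7 searched motifs in capitals. RefSeq windows were matched for 7 of the 8 genes, all but Ret.
Kitl, chr10:100015571-100015820, plus strand: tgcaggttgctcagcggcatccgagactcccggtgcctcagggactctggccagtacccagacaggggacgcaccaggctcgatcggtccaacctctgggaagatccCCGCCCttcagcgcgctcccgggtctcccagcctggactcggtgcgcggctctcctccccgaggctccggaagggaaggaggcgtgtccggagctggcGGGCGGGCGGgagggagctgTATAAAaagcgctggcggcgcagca
Gdnf, chr15:7809798-7810047, plus strand: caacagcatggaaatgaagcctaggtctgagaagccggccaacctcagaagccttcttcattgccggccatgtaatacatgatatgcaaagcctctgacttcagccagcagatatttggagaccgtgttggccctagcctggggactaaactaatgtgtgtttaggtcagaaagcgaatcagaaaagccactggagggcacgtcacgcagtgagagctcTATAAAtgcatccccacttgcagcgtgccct
Csf1, chr3:107760470-107760719, minus strand: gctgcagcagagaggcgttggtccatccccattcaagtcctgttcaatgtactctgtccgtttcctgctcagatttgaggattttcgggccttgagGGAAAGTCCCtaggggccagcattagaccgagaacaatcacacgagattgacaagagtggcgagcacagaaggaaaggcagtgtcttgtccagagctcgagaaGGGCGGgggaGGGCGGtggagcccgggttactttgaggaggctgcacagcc
Lif, chr11:4257318-4257567, plus strand: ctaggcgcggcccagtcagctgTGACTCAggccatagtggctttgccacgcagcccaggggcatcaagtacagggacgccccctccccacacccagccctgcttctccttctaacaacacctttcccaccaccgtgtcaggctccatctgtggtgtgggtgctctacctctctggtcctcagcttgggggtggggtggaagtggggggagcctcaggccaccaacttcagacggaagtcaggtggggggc
Each motif was searched on both strands. The TATA box was taken as TATAAA, and 12.4% of the 32841 windows of this length hold it. It lay 25 bases before the Kitl start and 31 bases before the start of the printed Gdnf window. That start is the gene start of the authors' table, but no GENCODE transcript of Gdnf opened with the bases after it, and a second RefSeq window of Gdnf held no match. The GC box was taken as GGGCGG and is held by 32.7% of windows. The Kitl window held GC boxes at -45 and -41 that overlap each other, and a further one at -143 on the opposite strand. Csf1 had GC boxes at -51 and -41 and a match to the NF-kB motif at -154 on the opposite strand, a motif found in 1.41% of windows. The AP-1 motif was taken as TGANTCA and is held by 6.75% of windows, and Lif had a match at -228. Kit and Fgf2 each had a GC box, at -98 in the first Kit window and at -49 in Fgf2, and Gfra1 had no match. No window of the 7 genes matched the E box, taken as CACGTG and held by 6.02% of windows. The same was true of the STAT motif, taken as TTCNNNGAA and held by 7.02%. The cAMP response element, TGACGTCA, was likewise not matched and is held by 1.55%. A match is a description of the letters and says nothing of binding.

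Over the 8 genes and 21 pairs of groups, 95 of 168 differences were called, 56.5%, beside 30% over all tested genes and pairs. Between germ cells and somatic groups 36 of 48 were called, 32 of them lower in germ cells, beside 69% of all genes called and 39.5% called lower. Among PTM, Sertoli and Leydig cells 7 of 24 were called, beside 10%. With each pair fitted alone and replicate number as a block, 5 were called there. Between those 3 testicular somatic groups and smooth muscle 40 of 72 were called, 24 higher and 16 lower in the testicular cells, beside 19.6% of all genes called, 11.3% higher and 8.31% lower. Among the 3 smooth muscle groups 12 of 24 were called, beside 3.19%. These comparisons share libraries and are not independent of each other. Kit passed the filter only through its 3 VSMC libraries, so its 2 calls, both in comparisons with VSMC, support nothing. These 2 calls are still in the counts above. A filter of 1 FPKM in at least 6 libraries left Kit out. It gave 93 calls in all, 35 between germ cells and somatic groups and 11 among smooth muscle groups. The ligands Kitl, Csf1, Lif and Fgf2 were each lower in germ cells in all 6 comparisons, a pattern that 28.4% of tested genes shared.

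**Figure D1:**
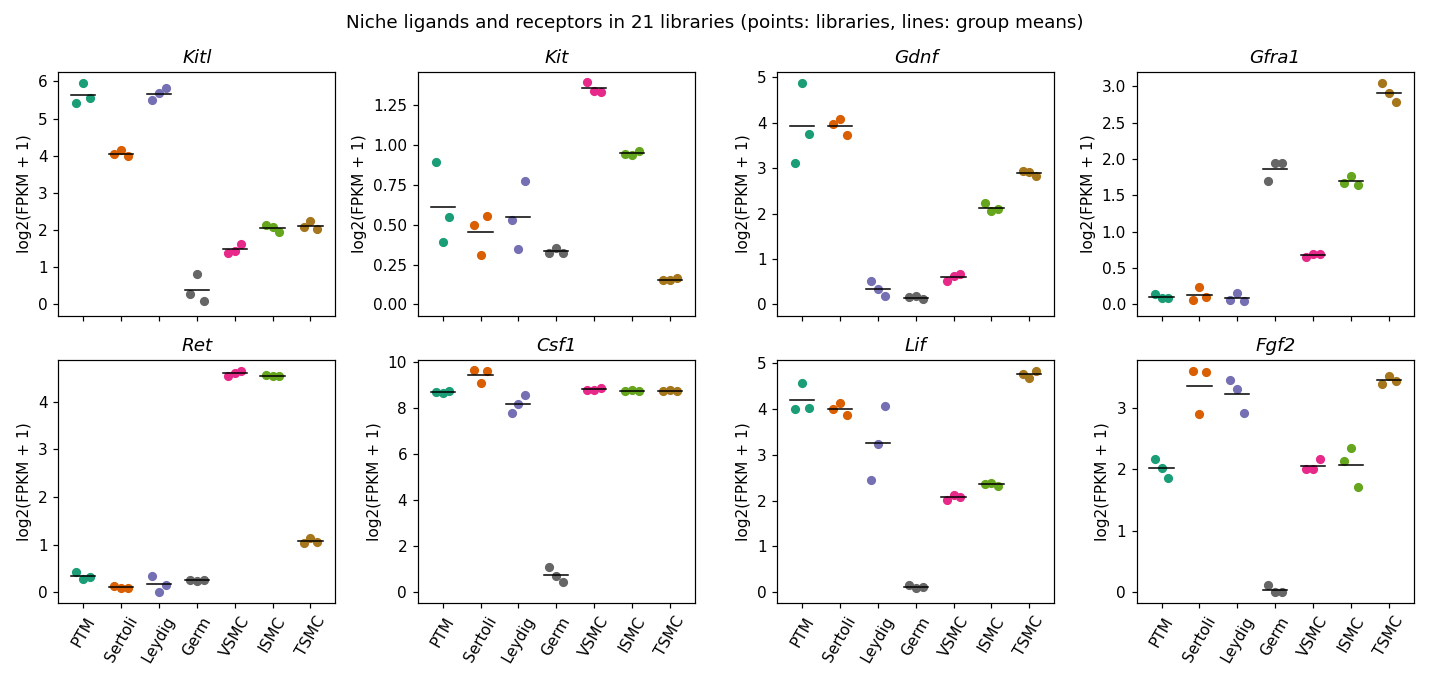
Levels of the 8 genes in 21 libraries as log2(FPKM + 1) on separate vertical scales; points are single libraries and lines are group means. Kitl is high in PTM and Leydig cells, Ret in VSMC and ISMC, Gfra1 in TSMC, and Csf1 is high in every group but germ cells.

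Kitl, the ligand of KIT, was highest in PTM and Leydig cells, lower in Sertoli cells, lower again in smooth muscle and lowest in germ cells. Its gene lies on chromosome 10 at 100015824 to 100100412 on the plus strand (mm10, the authors' coordinates). Kitl stood at 41.76, 61.39 and 46.21 FPKM in the PTM libraries and at 44.56, 50.33 and 55.92 in the Leydig libraries. These 2 groups overlapped, and their difference of -0.03 ± 0.16 (log2, SE, n = 3 and 3) was not called in the limma fit (adjusted p = 0.926). In Sertoli libraries Kitl was 15.38, 16.68 and 14.93 FPKM, below every PTM and Leydig library. PTM exceeded Sertoli cells by 1.59 ± 0.16 on the log2 scale (limma adjusted p = 1.1e-06, beside 6.06% of genes called in that pair), a 3.18-fold ratio of mean FPKM, and the same pair fitted with replicate number as a block gave adjusted p = 0.0232. Leydig cells exceeded Sertoli cells by 1.62 in size (adjusted p = 2.69e-07, beside 12.9%). The Sertoli level therefore stood apart from both other testicular somatic groups.

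In the smooth muscle libraries Kitl was 1.59, 1.71 and 2.11 FPKM in VSMC, 3.36, 3.20 and 2.85 in ISMC, and 3.24, 3.74 and 3.05 in TSMC. No smooth muscle library reached a Sertoli library. Each of PTM, Sertoli and Leydig cells exceeded each smooth muscle group, 9 of 9 comparisons with log2 fold changes from 1.94 to 4.19, a pattern that 3.44% of tested genes shared. Kitl was the only one of the 8 genes called in all 9. TSMC and ISMC overlapped, and VSMC was lower than TSMC by 0.63 (limma adjusted p = 0.0091), a difference under the fold threshold. Germ libraries held 0.21, 0.76 and 0.07 FPKM, and the difference from VSMC of -1.09 fell to -0.94 without the third germ library and to -0.998 under median log-ratio scaling, both under the fold threshold. Adam17, a protease known to shed cell-surface proteins and here listed with KIT ligand, was at 7.85 to 20.27 FPKM in somatic libraries and 2.35 to 3.37 in germ libraries. The sum of 5 Leydig markers was, like Kitl, highest in PTM and Leydig cells. It was 2334.7 to 4959.61 FPKM in PTM, 1096.13 to 7205.59 in Leydig and 87.55 to 98.89 in Sertoli libraries. In germ libraries it was 12.89 to 138.87 and in smooth muscle libraries at most 1.59. Insl3 made up most of the PTM and Leydig sums, at 2039.89 to 4531.62 and 747.38 to 6770.29. Cyp11a1 and Hsd3b1 were also highest in PTM and Leydig cells. Star was not, at 74.02 to 78.23 in Sertoli, 61.96 to 79.67 in PTM and 17.84 to 75.1 in Leydig libraries. Cyp17a1 was highest in germ libraries, at 0.35 to 1.65. Within PTM the second library had the lowest Leydig marker sum and the highest Kitl. The part of Leydig cells in the Kitl levels was not tested. Counts per gene do not separate the membrane-bound and shed forms of KIT ligand.

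Kit, the receptor of KIT ligand, was low in every group. The gene is on chromosome 5 at 75574987 to 75656722 on the plus strand. Kit was 1.63, 1.53 and 1.52 FPKM in VSMC, 0.92, 0.91 and 0.95 in ISMC, and 0.11, 0.11 and 0.12 in TSMC. These 3 groups did not overlap. The VSMC libraries exceeded the TSMC libraries by 1.2 ± 0.11 (log2, SE, limma adjusted p = 1.59e-07), and TSMC values correspond to about 12.2 to 13.4 fragments a library. Kit was tested only because its VSMC libraries reached 1 FPKM. This p-value and that of germ cells against VSMC therefore support nothing. Germ libraries held 0.25, 0.28 and 0.25 FPKM of Kit, about 26.2 to 29 fragments each. PTM, Sertoli and Leydig libraries ranged from 0.24 to 0.86, overlapped each other, and showed no called difference among themselves. Germ cells were lower than VSMC by 1.02 on the log2 scale (adjusted p = 5.32e-08), which became -0.97 under quantile normalization and -0.93 under median log-ratio scaling. Markers of cells known for KIT were also measured. Mast cell markers summed to at most 0.39 FPKM in any library, and melanocyte markers to at most 2.33 in somatic libraries and to 12.54 to 14.42 in germ libraries. The 4 markers of interstitial cells of Cajal summed to 14.8 to 16.13 FPKM in TSMC, 11.56 to 11.76 in VSMC and a range of 11.62 to 12.50 for ISMC, an order that does not follow Kit. The sum of 5 endothelial markers did have the order of Kit among the smooth muscle groups. It was 9.18 to 10.84 FPKM in TSMC libraries, 79.41 to 83.5 in ISMC libraries and 89.72 to 91.62 in VSMC libraries. Of these markers Kdr had another order, at 1.27 to 1.99 in TSMC, 1.95 to 2.28 in ISMC and 1.11 to 1.48 in VSMC. The part of these cell types in the Kit levels was not tested.

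Gdnf, the ligand of the GFRA1 and RET receptor, was high in PTM and Sertoli cells, intermediate in TSMC and ISMC, and low in VSMC, Leydig and germ cells. It is a gene of chromosome 15 at 7810048 to 7837580 on the plus strand. The PTM libraries held 7.68, 28.46 and 12.52 FPKM and the Sertoli libraries 14.77, 15.99 and 12.19. The groups overlapped, with a difference of -0.01 ± 0.27 (log2, SE, limma adjusted p = 1). The PTM libraries spread more than any other group, with a mean of 16.2 ± 10.9 FPKM (SD, n = 3), and the second was highest. That library also held the highest Sertoli marker sum, 1216.53 FPKM, and its Sox9, a Sertoli transcription factor, was at 61 against 20.78 and 28.07 in the other PTM libraries. The part of these markers in the Gdnf level was not tested.

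Leydig libraries held only 0.43, 0.27 and 0.13 FPKM of Gdnf. Both PTM and Sertoli cells exceeded them, by 3.57 ± 0.27 (limma adjusted p = 1.47e-08, beside 11.1% of genes called) and 3.58 ± 0.27 (adjusted p = 9.53e-09, beside 12.9%). Without the second PTM library the PTM difference was 3.09 and still called. Gdnf thus split the testicular somatic groups differently from Kitl, which was high in Leydig cells. Germ libraries held 0.12, 0.13 and 0.08 FPKM, overlapping the Leydig libraries.

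Among the smooth muscle groups, Gdnf was 0.44, 0.54 and 0.60 FPKM in VSMC, 3.69, 3.15 and 3.30 in ISMC, and 6.67, 6.52 and 6.07 in TSMC, and no 2 groups overlapped. VSMC were lower than ISMC by 1.52 ± 0.27 on the log2 scale (limma adjusted p = 0.00266, beside 0.831% of genes called in that pair) and lower than TSMC by 2.28 (adjusted p = 5.42e-06, beside 4.58%). ISMC and TSMC differed by 0.76, which was not called (adjusted p = 0.0728). Against TSMC, PTM cells were higher by 1.03 (adjusted p = 0.00305, beside 18.5%) and Sertoli cells by 1.04 (adjusted p = 0.00287, beside 18.5%), both at the edge of the fold threshold. The PTM difference fell to 0.55 without the second PTM library, to 0.99 without the third TSMC library, and to 0.89 and 0.84 under quantile and median log-ratio scaling. With PTM and TSMC fitted alone its adjusted p was 0.0897. The Sertoli difference fell to 0.96 without the second Sertoli library and to 0.99 and 0.95 under the same scalings.

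Gfra1, the co-receptor that binds GDNF, was highest in TSMC, similar in germ cells and ISMC, and near 0 in the testicular somatic cells. The gene occupies chromosome 19 at 58235581 to 58455398 on the minus strand. TSMC libraries held 7.26, 6.49 and 5.88 FPKM, germ libraries 2.24, 2.85 and 2.83, and ISMC libraries 2.19, 2.39 and 2.11. TSMC stood above all 6 other groups, each difference called, a pattern that 0.644% of tested genes shared. Germ cells and ISMC overlapped, with a difference of 0.17 ± 0.08 (log2, SE, limma adjusted p = 0.0483) under the fold threshold. VSMC libraries held 0.57, 0.61 and 0.61 FPKM. The PTM, Sertoli and Leydig libraries held 0.03 to 0.18, about 2.7 to 17 fragments each, and overlapped each other. Germ cells were higher than PTM by 1.76, than Sertoli by 1.73, than Leydig by 1.77 and than VSMC by 1.18 (limma adjusted p at most 5.57e-11), where 67.8 to 70.5% of genes were called. Gfra1 was the only one of the 8 genes called higher in germ cells than in any somatic group.

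The germ difference from TSMC, -1.05 ± 0.08 (limma adjusted p = 3.24e-10, beside 68.2% of genes called), did not hold the fold threshold under every setting. It was -0.50 under quantile normalization, -0.62 under median log-ratio scaling, -0.97 without the first germ library and -0.98 without the first TSMC library. The Gfra1 difference of VSMC from ISMC, -1.02 (adjusted p = 7.53e-08), was -0.84 under quantile normalization and -0.98 without the second ISMC library. Its direction was the same in each of these.

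Ret, the receptor kinase activated by GDNF and GFRA1, was found at a high level in VSMC and ISMC and at a low level everywhere else, germ cells included. Ret is on chromosome 6 at 118151748 to 118197744 on the minus strand. Ret was 22.10, 23.46 and 24.09 FPKM in VSMC and 22.65, 22.36 and 22.27 in ISMC. These 2 groups overlapped, with a difference of 0.05 ± 0.07 (log2, SE, limma adjusted p = 1). TSMC libraries held 1.06, 1.19 and 1.08 FPKM, which is 3.52 lower than VSMC on the log2 scale (adjusted p = 1.56e-16) and 3.47 lower than ISMC (adjusted p = 4.17e-16, beside 4.17% of genes called). The germ libraries held 0.19, 0.18 and 0.20 FPKM, about 26.6 to 29.9 fragments each. PTM libraries held 0.35, 0.22 and 0.25, Sertoli libraries 0.09, 0.07 and 0.07, and Leydig libraries 0.27, 0.01 and 0.12. None of the testicular libraries reached TSMC.

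VSMC and ISMC were each called above all 5 other groups for Ret, with log2 differences of 3.47 to 4.49, and 0.588% of tested genes shared that pattern. Among all genes of a library, the mean Ret level lay at percentile 84.1 in VSMC and 83.4 in ISMC, and at 28.9 in germ cells. In germ cells, then, Gfra1 was measured at 2.64 ± 0.347 FPKM (SD, n = 3) beside Ret at 0.19 ± 0.01, while VSMC had Ret at 23.2 ± 1.02 beside Gfra1 at 0.597 ± 0.0231. ISMC was the only group in which both were above 2 FPKM in every library. Markers of other cell types moved with these levels. The sum of 5 endothelial markers was highest in the same 2 groups as Ret, at 89.72 to 91.62 FPKM in VSMC and 79.41 to 83.5 in ISMC. It was 9.18 to 10.84 in TSMC, 15.17 to 32 in PTM, 5.85 to 10.46 in Sertoli cells, 12.36 to 30.14 in Leydig cells and at most 1.46 in germ cells. Of these, Pecam1 was 28.83 to 29.66 in VSMC and 25.6 to 26.83 in ISMC against at most 5.89 elsewhere, and Tie1 was 9.05 to 10.42 in both against at most 1.26, while Kdr was at most 2.28 in both. The part of endothelial cells in the Ret levels was not tested. Sox10, a neural crest and glial marker, was 20.55, 22.43 and 17.24 FPKM in ISMC and 26.61 to 27.34 in TSMC but at most 0.06 in VSMC. The 5 enteric neuron and glia markers used, which include Tubb3, summed to 48.78 to 54.14 FPKM in ISMC, 40.54 to 44.03 in TSMC and 17.75 to 20.79 in VSMC. They summed to 124.46 to 156.05 in Sertoli cells, 65.7 to 157.23 in PTM and 31.81 to 57.65 in Leydig cells. Tubb3 made up most of the Sertoli and PTM sums, at 124.31 to 155.76 and 62.82 to 155.37. Sox10, Gfap and Elavl4 were at most 0.06 in those libraries. The Leydig sum was mostly S100b and Tubb3. Gfap went with Sox10, at 0.99 to 1.33 in ISMC and at most 0.02 in VSMC. S100b did not, at 5.46 to 5.63 in VSMC, 4.21 to 6.17 in TSMC and 21.27 to 33.64 in Leydig cells, where Gfra1 and Gdnf were low. Gfra1 and Gdnf were thus higher in the 2 smooth muscle groups with Sox10, whereas Ret was as high in VSMC, where Sox10 was at or near 0. The part of neural or glial cells in the Gfra1 and Gdnf levels was not tested.

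**Figure D2:**
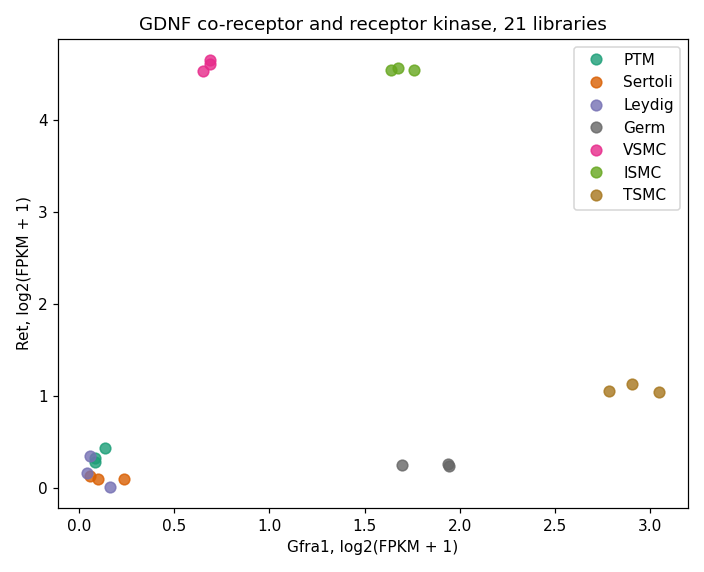
Ret against Gfra1 in 21 libraries, both as log2(FPKM + 1), 1 point a library coloured by group. VSMC sit high in Ret and low in Gfra1, ISMC high in Ret with intermediate Gfra1, TSMC highest in Gfra1 with little Ret, germ cells at intermediate Gfra1 with Ret near 0, and the testicular somatic libraries near 0 in both.

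The other ligands and co-receptors of the GDNF family had levels of their own. Gfra2, the main co-receptor of neurturin, was 6.34, 8.68 and 6.03 FPKM in germ libraries, 1.56 to 2.94 in Sertoli libraries and at most 0.55 elsewhere. Gfra4, the co-receptor of persephin, was 14.46, 14.64 and 16.28 FPKM in germ libraries, 3.65 to 5.56 in Leydig, 3 to 4.85 in Sertoli and at most 1.14 elsewhere. Both were called higher in germ cells than in all 6 somatic groups, by 1.25 to 2.90 for Gfra2 and 1.48 to 3.18 for Gfra4 on the log2 scale, a pattern that 25% of genes shared. Neurturin (Nrtn) was 6.03, 2.58 and 5.69 FPKM in germ libraries and at most 1.46 in somatic libraries, again called in all 6 comparisons. Artemin (Artn), the ligand of GFRA3, was 3.45 to 3.83 in germ libraries, 3.09 to 3.48 in ISMC, 6.24 to 6.64 in TSMC and at most 0.78 elsewhere, an order of groups like that of Gfra1. Of the list of 14 GDNF family and RET partner genes, 10 were tested. In them 51.4% of differences over the 21 pairs were called, beside 30% over all genes. Of the 10 genes, 5 (Gdf15, Ncam1, Dok4, Dok5 and Shc1) were lower and 4 (Nrtn, Gfra2, Gfra4 and Shc3) higher in germ cells in all 6 comparisons. The median germ difference was -0.53, beside -0.53 over all genes. Leaving out any 1 germ library cut the list from 108 to 102 calls over the 21 pairs. Part of the higher count may therefore hang on the filter. Gfra2, Gfra4 and Nrtn also reached 1 FPKM in somatic libraries, so of the 4 this limit may concern Shc3. The higher calls of Shc3 are not taken as support.

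Of 10 genes known from cultured spermatogonia to respond to GDNF or to mark the responding cells, 8 were tested. Of their 48 differences between germ cells and somatic groups, 24 were called lower and 9 higher in germ cells, as were 39.5% and 29.5% of the same differences over all tested genes. Etv5 and Egr2 were lower in all 6 comparisons, as were 28.4% of all tested genes. Over the 21 pairs 48.8% of the differences were called, beside 30% over all genes. Etv5, a transcription factor of that response, was 0.31, 0.34 and 0.59 FPKM in germ libraries and 6.84 to 15.05 in somatic libraries. Id4, a factor known from spermatogonial stem cells, went the other way from Etv5, with 10.24, 10.2 and 9.71 FPKM in germ libraries against at most 7.61 in any somatic library. Bcl6b was 7.1 to 7.45 FPKM in VSMC and 6 to 6.29 in ISMC against at most 2.07 elsewhere. Ret and the endothelial marker sum were also highest in VSMC and ISMC. Pou3f1 was 5.12, 20.47 and 9.47 FPKM in PTM and 2.57, 11.09 and 3.77 in Sertoli libraries, against at most 0.15 elsewhere, and its second library was highest in both groups. Mycn was 2.74 to 10.58 FPKM in the testicular somatic libraries and at most 0.69 in smooth muscle, called in all 9 comparisons, as was Egr2, with log2 differences of 1.30 to 3.10. Being higher in all 9 was a pattern that 3.44% of tested genes shared.

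Csf1, the growth factor of macrophages, was by far the most abundant of the 8 transcripts per length, and it was high in every somatic group. Its gene lies on chromosome 3 at 107741048 to 107760469 on the minus strand. Csf1 was 803.80, 543.40 and 786.70 FPKM in Sertoli libraries, 413.43, 399.96 and 433.11 in PTM, and 222.13, 294.35 and 382.68 in Leydig libraries. None of these 3 groups overlapped. Sertoli cells exceeded Leydig cells by 1.26 ± 0.18 (log2, SE, limma adjusted p = 1.46e-05, beside 12.9% of genes called), while the PTM differences from Sertoli (-0.75, adjusted p = 0.00384) and from Leydig cells (0.50, adjusted p = 0.0238) were under the fold threshold. Fitted as a pair with replicate number as a block, the Sertoli and Leydig difference was not called (limma adjusted p = 0.0745). The smooth muscle libraries lay in a narrow band of 425.13 to 476.41 FPKM across VSMC, ISMC and TSMC. No Csf1 difference between a testicular somatic and a smooth muscle group was called, 0 of 9, although 6 of the 9 had an adjusted p under 0.05 with a fold under the threshold. Under quantile normalization 1 more was called, Leydig against VSMC at -1.04. In the somatic groups mean Csf1 lay between percentile 98.5 and 99.4 of the genes.

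Germ libraries held 1.13, 0.65 and 0.35 FPKM of Csf1. The somatic groups exceeded them by 7.45 to 8.71 on the log2 scale, the largest differences among the 8 genes. Csf1r, the receptor of CSF1, was 13.17, 7.01 and 9.20 FPKM in Leydig libraries, 6.53 to 7.90 in ISMC, 3.57 to 3.90 in VSMC, 2.93 to 3.05 in PTM and at most 2.16 in Sertoli, TSMC and germ libraries. Macrophage markers, a list of 8 genes that includes Csf1r, summed to 463.64 to 640.91 FPKM in ISMC, 222.74 to 249.46 in VSMC, 74.52 to 133.22 in PTM, 16 to 178.87 in Leydig and 9.44 to 11.14 in TSMC. Within the smooth muscle groups Csf1r and the marker sum had the same order of groups, with Csf1r called higher in VSMC (1.5) and ISMC (2.28) than in TSMC, whereas Csf1 itself was level. In Leydig libraries Csf1r had its highest mean and overlapped ISMC, although the marker sum was below that of ISMC. The part of macrophages in the Csf1r levels was not tested. Il34, the other ligand of that receptor, was 3.28, 8.59 and 4.60 FPKM in PTM, 0.70, 4.33 and 1.41 in Sertoli, 2.07 to 4.40 in smooth muscle and at most 1.37 in Leydig and germ libraries. Ptprz1, known as a further receptor of interleukin 34, was 7.73 to 8.50 FPKM in VSMC and ISMC and at most 0.57 elsewhere. Ret and the endothelial marker sum were highest in the same groups.

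Lif, a cytokine of the interleukin 6 family, was highest in TSMC, then in PTM and Sertoli cells, and lowest in germ cells. Its gene lies on chromosome 11 at 4257568 to 4272514 on the plus strand. TSMC libraries held 26.07, 24.31 and 27.47 FPKM, PTM libraries 14.86, 22.65 and 15.26, and Sertoli libraries 14.90, 16.41 and 13.55. The TSMC libraries lay above every other library, but the differences of PTM (-0.56 ± 0.25, log2, SE, limma adjusted p = 0.0657) and Sertoli cells (-0.76, adjusted p = 0.0157) from TSMC were not called. PTM and Sertoli cells overlapped. Leydig libraries spread widely, at 4.42, 8.46 and 15.56 FPKM. Leydig cells differed from PTM by 0.95 and from Sertoli cells by 0.75 without a call, and without the third Leydig library these became 1.35 and 1.15 and were called. The PTM difference was also called without the first (1.05) or the third PTM library (1.03).

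VSMC held 3.04, 3.36 and 3.20 FPKM of Lif and ISMC 4.16, 4.18 and 3.97. Both were below TSMC, by 2.68 (limma adjusted p = 3.51e-07, beside 4.58% of genes called) and 2.40 (adjusted p = 1.81e-06, beside 4.17%) on the log2 scale. PTM cells exceeded VSMC by 2.12 and ISMC by 1.84, and Sertoli cells exceeded them by 1.92 and 1.64, all 4 called. Leydig cells were below TSMC by 1.51 (adjusted p = 5.43e-05, beside 21.9%). Leydig cells exceeded VSMC by 1.17 (adjusted p = 0.000601, beside 22%), which fell to 0.77 without the third Leydig library, and with the pair fitted alone its adjusted p was 0.0574. The Leydig difference from ISMC, 0.89, was called without the first Leydig library, at 1.295. Germ libraries held 0.07 to 0.12 FPKM, below every somatic library.

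The receptor of LIF pairs LIFR with the shared subunit gp130, encoded by Il6st. Lifr was 13.63, 11.69 and 17.62 FPKM in Leydig libraries, 10.57, 4.97 and 9.08 in PTM, 2.53 to 3.02 in Sertoli, 1.66 to 2.47 in germ and 0.69 to 1.13 in smooth muscle libraries. PTM cells exceeded the 3 smooth muscle groups in Lifr by 2.14 to 2.33 and Leydig cells by 2.91 to 3.10, and PTM exceeded Sertoli cells by 1.26, all called. Il6st was 131.08, 99.53 and 89.77 FPKM in Leydig libraries, 26.92 to 43.64 in the other somatic libraries and 1.25 to 1.57 in germ libraries, and Leydig cells were called above every other group. Socs3, a feedback inhibitor induced by these receptors, was 89.16 to 117.47 FPKM in Leydig libraries against at most 21.47 in any other library. Fibroblast markers were also highest in Leydig libraries, with sums of 2544.51 to 3145.94 FPKM against 102.93 to 275.89 in the other somatic libraries, and their part in these levels was not tested. The germ libraries held some Lifr beside little Il6st. Of 19 interleukin 6 family genes 17 were tested, 42% of their differences were called beside 30% over all genes, 9 were lower and 1, the receptor gene Cntfr, was higher in germ cells in all 6 comparisons, where 28.4% and 25% of all genes were. The median germ difference was -3.06 beside -0.53. The ligand Clcf1 was 61.59 to 98 FPKM in PTM and Sertoli libraries against 9.44 to 16.1 in smooth muscle.

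Fgf2, a growth factor used in cultures of spermatogonial stem cells, was higher in Sertoli, Leydig and TSMC cells than in PTM, VSMC and ISMC. Its gene lies on chromosome 3 at 37348653 to 37404830 on the plus strand, and the transcript used for it in the table is only 695 bases long, so 1 fragment weighs more in its FPKM than in that of the other 7 genes. Sertoli libraries held 11.13, 6.47 and 10.98 FPKM, Leydig libraries 9.94, 8.89 and 6.52, and TSMC 9.48, 10.40 and 9.79. These groups overlapped in every pair and none of their differences was called. PTM libraries held 3.51, 3.05 and 2.64 FPKM, VSMC 3.01, 3.02 and 3.49, and ISMC 3.41, 4.11 and 2.28, and these again overlapped. No library of the lower 3 groups reached the higher 3. PTM cells were below Sertoli cells by 1.34 ± 0.18 (log2, SE, limma adjusted p = 2.92e-05, beside 6.06% of genes called), below Leydig cells by 1.2 (adjusted p = 3.45e-05, beside 11.1%) and below TSMC by 1.43 (adjusted p = 3.01e-06, beside 18.5%). Fitted as a pair with replicate number as a block, the PTM and Sertoli difference kept its size but was not called (adjusted p = 0.051). VSMC and ISMC were below TSMC by 1.38 and 1.37, and with a pseudocount of 0.01 the adjusted p of these 2 was 0.0608 and 0.0789. Leydig cells exceeded ISMC by 1.15, which was 0.98 without the third ISMC library. In germ cells Fgf2 was 0.08 FPKM in the first library, about 1 fragment, and listed at 0 in the others.

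Fgfr1, a receptor of FGF2, was 26.1 to 79.58 FPKM in somatic libraries and 0.44 to 0.59 in germ libraries, with somatic groups higher by 4.70 to 5.51 on the log2 scale. Fgfr2 was 7.05 to 8.03 FPKM in TSMC, 7.13 to 10.40 in Sertoli and 4.39 to 9.44 in Leydig libraries, against 1.18 to 3.64 in PTM, VSMC and ISMC and at most 0.11 in germ libraries. Fgfr2 levels were thus highest in the same 3 groups as those of Fgf2, and PTM cells were below Sertoli cells by 1.72, Leydig cells by 1.28 and TSMC by 1.52. Fgfr3 was at most 0.57 FPKM in any library. Of the 30 listed FGF ligands and receptors 14 were tested, with 35.4% of differences called, and 5 were lower and 2, Klb and Fgf12, were higher in germ cells in all 6 comparisons. Over all tested genes 30% of differences were called, and 28.4% of genes were lower and 25% higher in all 6, so these shares are not far from the background. Klb passed the filter only through its germ libraries, so its higher calls support nothing. The list had 104 calls over the 21 pairs, and 91 or 92 without any 1 germ library. That fall is larger than the 6 calls of Klb. Fgf12 may therefore also have passed only through germ libraries, so its higher calls are not taken as support. Fgf10 and Fgf7 were lower in the testicular somatic groups in all 9 comparisons with smooth muscle, where 2.49% of genes were.

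**Figure D3:**
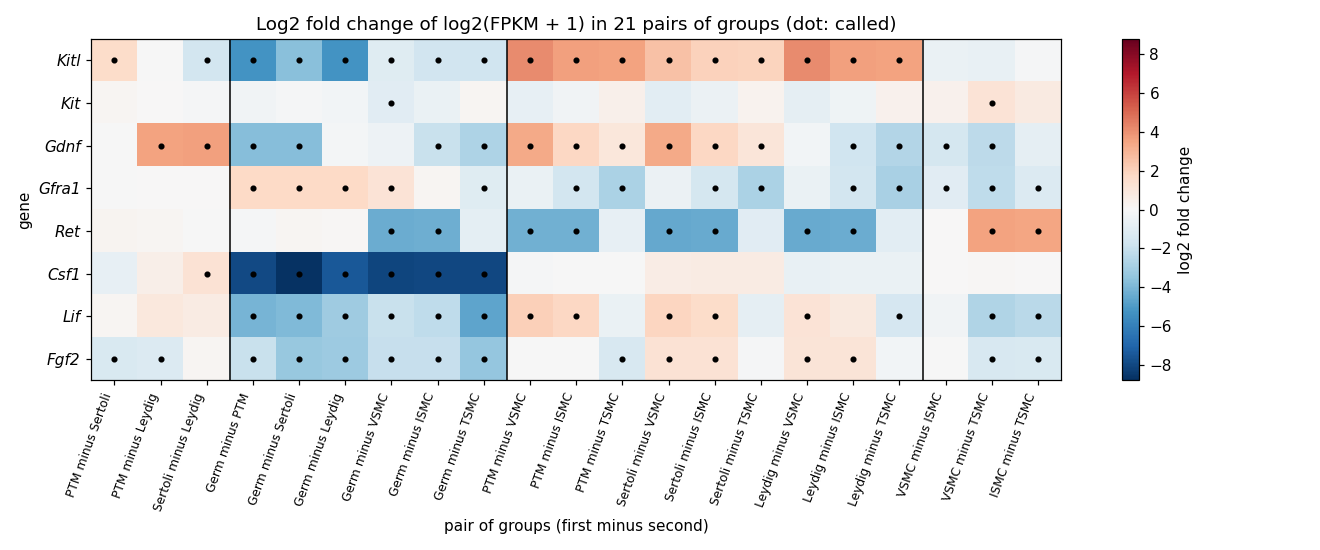
Log2 fold change of each of the 8 genes in the 21 pairs of groups (first group minus second; red higher, blue lower in the first), with dots on called differences and vertical lines between the 4 kinds of pair. Kitl is red in all 9 pairs of testicular somatic and smooth muscle groups, Csf1 has no dot there, and Gfra1 is the only gene with dots on red in the germ pairs.

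Placed side by side, Kitl and Gdnf were highest in other groups than the genes of their receptors. Not every ligand stood apart in this way. ISMC libraries held Gdnf at 3.15 to 3.69 FPKM, Gfra1 at 2.11 to 2.39 and Ret at 22.27 to 22.65. Fgf2 and Fgfr2 were highest in the same groups. KIT ligand at 14.93 to 61.39 FPKM in the testicular somatic libraries stood beside Kit at 0.25 to 0.28 in the germ libraries. GDNF at 7.68 to 28.46 in PTM and Sertoli libraries stood beside Gfra1 at 2.24 to 2.85 and Ret at 0.18 to 0.20 in the germ libraries. These are levels of RNA in separate cell preparations. The share of stem cells in them was not measured.

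**Figure D4:**
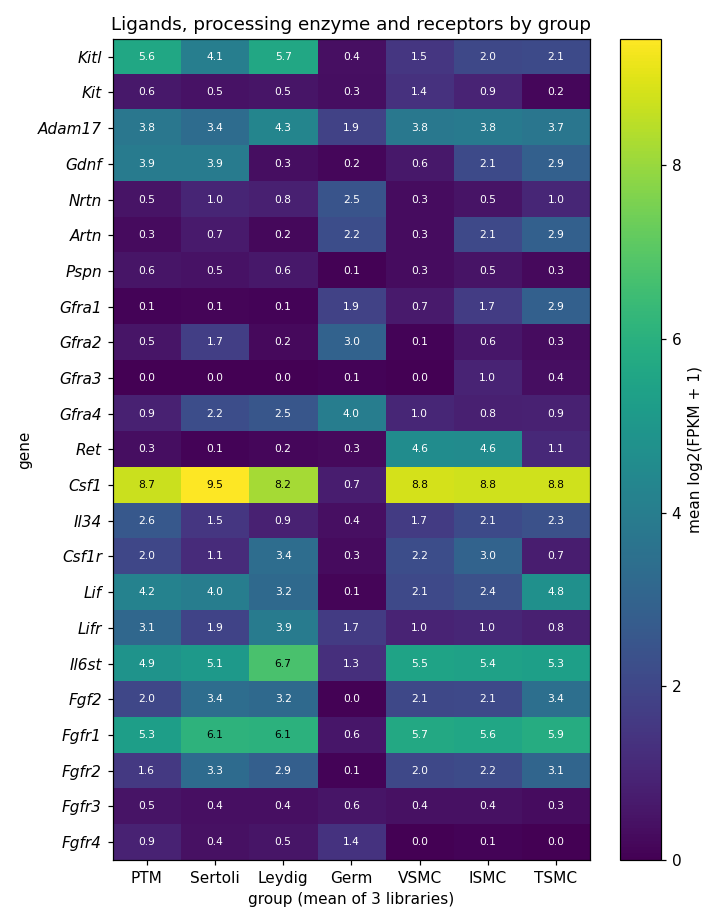
Mean log2(FPKM + 1) over 3 libraries of the 8 genes and their direct partners in each group, with the mean printed in each cell. Csf1 has the brightest somatic row, Fgfr1 and Il6st are bright in every somatic group and dark in germ cells, and Gfra2 and Gfra4 are brightest in germ cells.

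Lists of signalling genes shared by these receptors differed in how many members were lower in germ cells, where 28.4% of all tested genes were lower and 25% higher in all 6 comparisons. Of 15 tested genes of ERK feedback and output, 9 were lower and 1, Frs3, was higher in germ cells in all 6 comparisons, with a median difference of -2.54 beside -0.53 over all genes. Spry1, an inhibitor of receptor kinase signalling, was 67.66 to 114.66 FPKM in Sertoli libraries, 28.9 to 32.84 in PTM and 0.10 to 0.34 in germ libraries, and Dusp6, a phosphatase of ERK, was 44.92 to 117.27, 61.42 to 69.19 and 0.18 to 0.31. Dusp6 was higher in PTM than in each smooth muscle group, by 1.73 to 2.38, and higher in Sertoli cells, by 2.07 to 2.71. Of 19 tested KIT signalling genes 7 were lower and 2, Cbl and Pik3cd, were higher in germ cells in all 6 comparisons, and 29.8% of differences were called, near the 30% of all genes. Cbl, a ubiquitin ligase of receptor kinases, was 38.15 to 43.36 FPKM in germ libraries against at most 5.96 elsewhere, while Ptpn11 was 0.49 to 0.80 in germ libraries against 25.85 to 61.49. Of 6 tested genes of the CSF1 receptor axis, 1, Sdc1, was lower in germ cells in all 6 comparisons and no difference was higher, with 42.1% of differences called beside 30% over all genes.

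The genes most like each of the 8 were sought by Pearson's r of log2(FPKM + 1) over the 21 libraries, which share their 7 groups, among tested genes reaching a group mean of 5 FPKM. Ret was most like Rspo2 (r = 0.996), Hoxa7 (0.993) and Ptprz1 (0.992). Rspo2 had means of 8.92 FPKM in VSMC, 7.34 in ISMC and 0.61 in TSMC, the order of Ret. Csf1 was most like the collagen chains Col4a1 (r = 0.997) and Col4a2 (0.997), whereas over the 18 somatic libraries Msantd3 led with 0.928. Kitl was most like Bcl3 (r = 0.98) over all libraries and Mrap (0.988) over the somatic libraries. Mrap, an accessory protein of the corticotropin receptor, had means of 183 FPKM in Leydig cells, 177 in PTM and 27.3 in Sertoli cells and at most 0.403 in smooth muscle. Gdnf was most like Ttyh1 (r = 0.958) and Dtna (0.956), and Ttyh1 had means of 50.3 FPKM in both PTM and Sertoli cells and 0.647 in Leydig cells. Gfra1 was most like Artn (r = 0.962) over all libraries and Edil3 (0.993) over the somatic libraries. Lif was most like F3 (r = 0.957), Fgf2 most like its receptor gene Fgfr2 (0.968), and Kit most like Hoxc5 (0.879).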

How the data were processed

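RNA of 21 libraries was sequenced. The authors' deposited table gives FPKM per gene and library, and the submitters' processing notes name RSEM 1.2.12, Bowtie2 2.2.5 and HISAT2 2.0.4 with the build mm10, but not their roles. Values exist for 19285 of 22135 genes. Spreadsheet dates were restored to 27 symbols, and 4 columns of a group with no sample were not used. Read counts were not used here, so depth was inferred from low values of transcripts of 800 to 1500 bases, of which 86.3 to 93.4% were whole fragments within 0.2, against 40% by chance. Coordinates are the authors'.

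The 14444 genes that reached 1 FPKM in 3 or more libraries entered, as log2(FPKM + 1), 1 limma 3.58.1 fit (R 4.3.3) with 7 group means and a mean-variance trend, and all 21 pairs were compared. The test was checked on simulated data. The members and lists were chosen with earlier results of these data known. The text names the 8 genes, up to 6 called genes of each list by range of group means, direct partners, markers and the 3 most alike genes. Small counts of other list members (Dok5, Shc3, Cntfr, Fgf12, Frs3, Pik3cd) are named after their values were seen. Deviations of same-numbered libraries correlated above 0.1 for every replicate number in PTM and Sertoli cells alone of the 21 pairs of groups (0.227, 0.25 and 0.103). The last value lay just over that cutoff. Some other pairs were positive throughout, such as ISMC and TSMC (0.06, 0.004 and 0.162). The possible pairing of PTM and Sertoli cells comes from the data and not from the labels. The main fit and its counts do not use it, and a block on replicate number was run only as an alternative. Blocked p-values of PTM against Sertoli cells are printed only for Kitl and Fgf2. Some marker genes are not reported here, and their list was summed without them. Alternatives were other pseudocounts, filters and scalings, pairs fitted alone, replicate blocks and left-out libraries.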

Additional observations from a re-analysis of the deposited data

How the results depend on the processing

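Of the 95 called differences of the 8 genes, none changed direction under any alternative run. Without a fold minimum the calls rose from 7 to 12 among PTM, Sertoli and Leydig cells and from 40 to 63 between testicular somatic and smooth muscle groups, and list calls rose from 119 to 266 (KIT signalling), 53 to 84 (CSF1 receptor axis), 150 to 244 (interleukin 6 family), 104 to 193 (FGF) and 113 to 191 (ERK feedback). A pseudocount of 0.1 gave 115 calls of the 8 genes and 0.01 gave 118, and the FGF list then had 162 and 169 calls and the CSF1 receptor axis 80 at 0.01, by construction since low values then move more. Leaving out 1 library gave 93 to 96 calls, and Kit was not tested where a VSMC library was absent. A replicate block over all libraries gave 95 calls, and the block in each pair alone gave 91, losing Fgf2 between PTM and Sertoli cells among paired groups and no other call there. Quantile normalization gave 91 and median log-ratio scaling 90. These scalings moved the median germ difference of all genes from between -0.62 and -0.26 to between -0.26 and -0.18 and between -0.11 and 0.03. Near 0 FPKM, depth limits Kit, Gfra1 and Ret in the testicular groups.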

Other observations

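Other genes of the FGF list differed between the bought smooth muscle cells and the isolated testicular cells, or among the smooth muscle groups. Fgf10, a mesenchymal signal to epithelium through FGFR2, was 12.19 to 14.91 FPKM in the 9 smooth muscle libraries and at most 0.73 in any testicular library, called in all 9 comparisons of testicular somatic with smooth muscle groups (log2 fold changes of -3.91 to -3.30). Fgf7, which acts on the same receptor, was 21.98 to 34.26 FPKM in smooth muscle, 6.06 to 9.69 in Leydig libraries and at most 4.04 in the other testicular libraries. Fgf5 was 14.32, 14.17 and 12.71 FPKM in TSMC, 2.12 to 2.44 in ISMC and at most 0.18 elsewhere, VSMC included. Klb, a co-receptor of endocrine FGFs, was 8.57, 7.75 and 8.85 FPKM in germ libraries and at most 0.04 in any somatic library.

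Gdf15, a distant ligand of RET through GFRAL, was 58.47 to 65.1 FPKM in VSMC and ISMC, 23.16, 57.56 and 30.17 in PTM, 24.86 to 27.18 in Sertoli, 8.94 to 11.83 in TSMC, 2.43 to 7.03 in Leydig and at most 0.25 in germ libraries. VSMC and ISMC, the groups with high Ret, each exceeded TSMC in Gdf15 by 2.47 on the log2 scale.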
